A study of Mus musculus with 20 samples.

Results

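The basement membrane genes described here were 9 genes for the structural chains of basement membranes: *Col4a1*, *Col4a2*, *Col4a3*, *Col4a4*, *Col4a5*, *Lama5*, *Lamb1*, *Lamc1* and *Nid1*. They were taken by name from the table of raw read counts, which lists 24411 genes, and all 9 were found and tested in each comparison. The RNA came from whole kidneys of 20 mice killed at P125. They formed 4 groups of 5, by sex and by genotype (control or mutant), and each mouse gave 1 library. Mutants carried *Pkd2*fl/fl together with the transgenes *Pax8*rtTA and *TetO*Cre, and the *Pax8* promoter drives the transactivator in the epithelium of all tubule segments, so that deletion was not directed to glomeruli, vessels or interstitial cells. Controls were littermates that lacked either *Pax8*rtTA or *TetO*Cre. All 20 mice, controls included, received doxycycline (DOX) at 50 mg/kg on each day from P27 to P29. The background was inbred C57BL/6, and the mice belonged to 3 litters, named A, B and C. Kidney to body weight (KBW) was computed as the weight of 1 kidney in percent of body weight.

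A basement membrane is a sheet of extracellular matrix under every epithelium and endothelium, and in the polycystic kidney it is the layer on which the cyst lining rests. Its frame is made of a collagen IV network and a laminin network, which nidogen links to each other. *Col4a1* and *Col4a2* encode the chains of the collagen IV network that nearly all basement membranes hold. *Col4a3*, *Col4a4* and *Col4a5* encode the network of the mature glomerular basement membrane, where the chains are made by podocytes, and of some tubule basement membranes. Its loss causes Alport syndrome. *Lama5*, *Lamb1* and *Lamc1* encode an alpha, a beta and a gamma chain that assemble into a laminin trimer found under kidney tubules, and *Nid1* encodes nidogen-1.

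The collagen IV genes lie in head-to-head pairs, and their start regions are shown because the members of a pair share them. In the GENCODE annotation of GRCm38, *Col4a1* (chromosome 8, 11198423 to 11312826, minus strand) and *Col4a2* (chromosome 8, 11312805 to 11449287, plus strand) overlap by 22 bases at their starts, within the first exon of each. *Col4a4* (chromosome 1, 82448423 to 82586849, minus strand) and *Col4a3* (chromosome 1, 82586921 to 82722059, plus strand) are 71 bases apart, and 126 bases lie between the starts of their coding transcripts. *Col4a5* lies on chromosome X, 1308 bases from *Col4a6*. The sequences of both shared regions, from RefSeq on GRCm38.p6, are given 5′ to 3′ with the letters GGGCGG (either strand) in capitals.
*Col4a1* and *Col4a2* overlap, chr8:11312805-11312826, strand of *Col4a2*: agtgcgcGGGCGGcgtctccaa
*Col4a4* to *Col4a3* interval, chr1:82586850-82586975, strand of *Col4a4*: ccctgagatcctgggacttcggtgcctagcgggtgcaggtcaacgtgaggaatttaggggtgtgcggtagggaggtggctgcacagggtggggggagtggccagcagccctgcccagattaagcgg
The interval between *Col4a4* and *Col4a3* held none of the motifs searched on either strand (a GC box, a CCAAT box and a TATA box). Start windows of 300 bases, from 250 bases before to 50 bases after the start, were given for 7 of the 9 genes and for *Col4a6*, and none was given for *Col4a3* or *Lamc1*. GGGCGG, the core of a GC box, was in 7 of these 8 windows, against 35.7% of 32851 windows over all genes, and was missing in that of *Col4a4*. CCAAT was in 5 of 8, against 37.4% of all windows. TATAAA was in 0 of 8, against 13.6% of all windows. The 8 windows held 48.3% (*Col4a6*) to 74% (*Col4a1*) of G and C letters, against a median of 52.7% over all windows. The shares were not compared with windows of like composition. The windows of *Col4a1* and *Col4a2* overlap, as do those of no other pair, and these matches describe letters only.

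Per length and over all 20 mice, mutants included, *Col4a1* had the highest median of the 9 transcripts, 44.6 CPM (counts scaled to a common library size) per kilobase of exon. *Lamb1* followed with 41.1, *Col4a3* with 36.6, *Col4a2* with 28.2 and *Col4a4* with 22.5 CPM per kilobase. *Nid1* had 12.8, *Lama5* 9.44, *Lamc1* 8.78 and *Col4a5* 8.08 CPM per kilobase. In both control groups *Col4a1* came after *Col4a3* and *Lamb1*. The means in male controls were 36.5 for *Col4a3*, 33.8 for *Lamb1* and 31.7 CPM per kilobase for *Col4a1*, and those in female controls were 41.0, 42.5 and 40.4 in the same order. In mutants *Col4a1* had the highest mean, 67.1 CPM per kilobase in males and 66.6 in females. The counts behind these levels ran from 521 for *Lamc1* to 14904 for *Col4a1* in 1 library.

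Total counts per library were 11307741 to 19324073. *Pkd2*, the gene deleted, did not overlap between genotypes within a sex: it ranged over 250.4 to 332 CPM in male controls, 109.7 to 133 in male mutants, 193 to 306 in female controls and 94.8 to 182 in female mutants. Female mutant 4 stood apart from the other libraries: only 14850 genes had a count in it, where the rest had 16776 to 17724, and 76 genes had a count of 1, where the rest had 708 to 859. It also had the smallest KBW of the mutants, 0.836%. Calls that rest on female mutants are therefore also given without it. The labels do not say how libraries were batched, and the 5 mice of a group were separate animals.

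The genes of the widespread collagen IV network, *Lamc1* and *Nid1* were higher in mutants than in controls, whereas *Col4a3*, *Col4a4*, *Col4a5*, *Lama5* and *Lamb1* did not pass the test. Over both sexes, with sex and litter in the edgeR fit, 4 of the 9 genes were DEGs at an adjusted p under 0.01, all 4 higher in mutants. The share over all 14191 genes tested was 15.9%, made up of 10% higher in mutants and 5.86% lower. The log2 fold change was 0.88 ± 0.15 (SE) for *Col4a1*, 0.75 ± 0.14 for *Col4a2*, 0.75 ± 0.13 for *Nid1* and 0.67 ± 0.11 for *Lamc1*. The median over the 9 genes was 0.27, against −0.012 over all genes tested, and 8 of 9 were above 0. The same 4 genes remained DEGs, and no other of the 9 became one, with each of the 20 mice left out in turn and in each of the 5 other fits of this comparison.

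**Figure D1:**
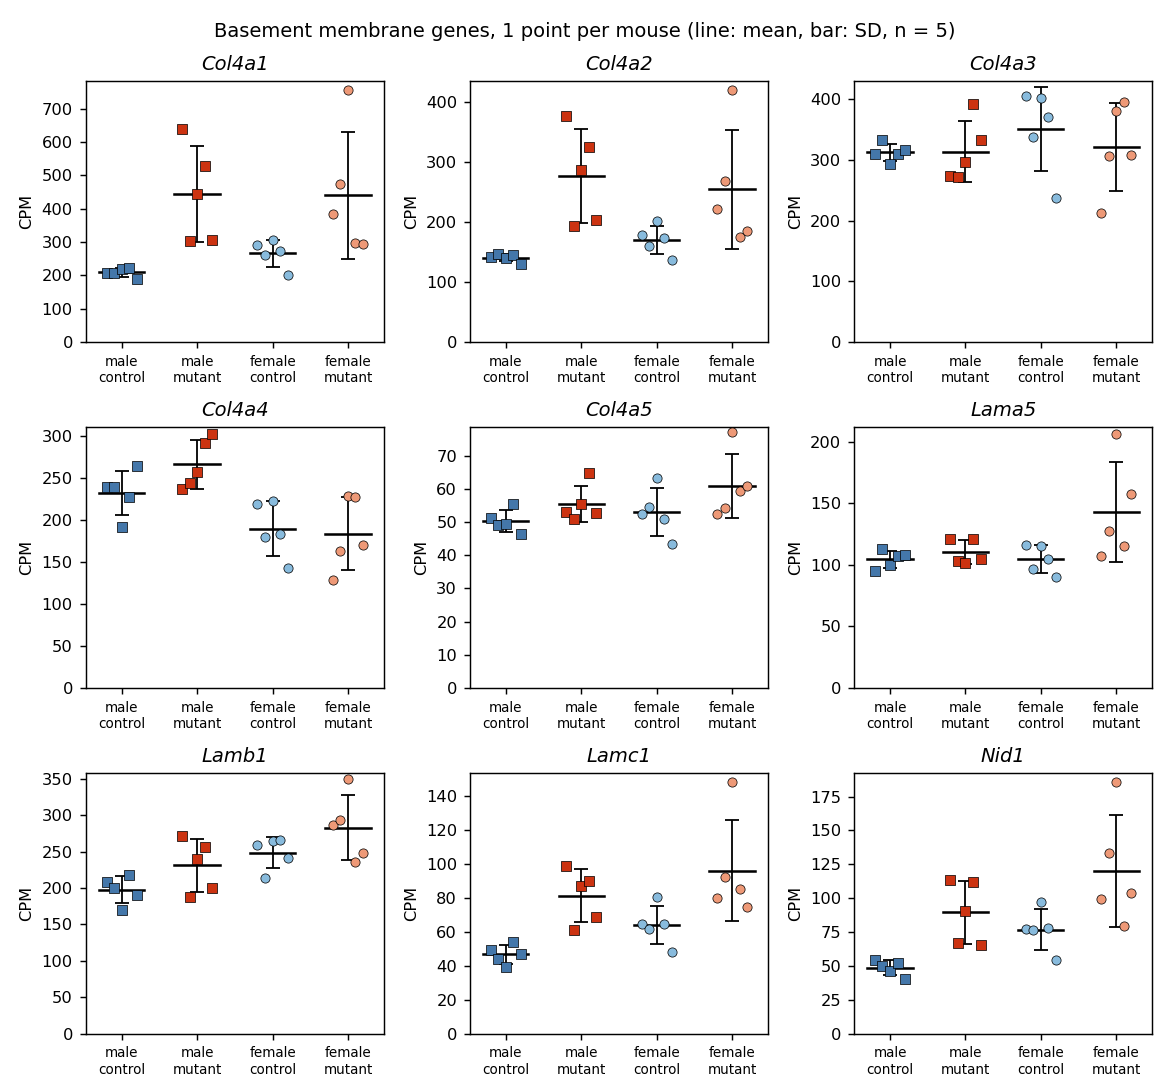
Levels of the 9 basement membrane genes in CPM (TMM library sizes; vertical axes start at 0), 1 point per mouse in 4 groups of 5, with the mean as a line and the SD as a bar. Male mutants lie above every male control for *Col4a1*, *Col4a2*, *Lamc1* and *Nid1*, and for no gene do all female mutants lie above all female controls.

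*Col4a1* was at 207, 209, 219.8, 223 and 189 CPM in male controls 1 to 5 and at 639, 302, 443, 529.6 and 307 CPM in male mutants 1 to 5. All male mutants stood above all male controls, and the mutants were spread over a range far wider than that of the controls. In males the log2 fold change was 1.04 ± 0.17 (SE; 2.06-fold, edgeR adjusted p = 0.00244). In female controls 1 to 5 *Col4a1* was at 291, 261, 307, 275 and 201 CPM, and in female mutants 1 to 5 at 384, 474, 755, 296 and 293 CPM. The lowest 2 female mutants, mice 4 and 5, lay below the highest female control. The log2 fold change in females was 0.73 ± 0.22 (SE; edgeR adjusted p = 0.0864), which did not pass, and 0.87 without female mutant 4 (adjusted p = 0.0126).

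*Col4a2*, whose product joins that of *Col4a1* in the same trimer, followed it closely. Male controls had 142, 146, 141, 146 and 130.3 CPM, and male mutants had 377, 194, 288, 325 and 203 CPM. The groups did not overlap in males, and the log2 fold change was 0.94 ± 0.15 (SE; 1.92-fold, edgeR adjusted p = 0.00237). Female controls had 179, 161, 201, 173 and 137.5 CPM, and female mutants had 223, 268, 421, 176 and 185 CPM. Female mutants 4 and 5 again lay among the controls, and the log2 fold change of 0.60 ± 0.21 (SE) had an edgeR adjusted p of 0.132, or 0.0220 without female mutant 4. In each of the 20 mice there were between 0.558 and 0.701 *Col4a2* counts for 1 *Col4a1* count. This ratio was lower on average in mutants, at 0.632 ± 0.029 (SD, n = 5) against 0.674 ± 0.025 in male controls. In females it was 0.586 ± 0.029 in mutants and 0.640 ± 0.029 in controls, and the difference was not tested. Across the 20 mice the log2 CPM of *Col4a1* and *Col4a2* had a Spearman rho of 0.985.

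*Lamc1*, the gamma chain shared by most laminin trimers, was at 49.6, 44.0, 39.1, 54.1 and 46.9 CPM in male controls and at 99.0, 61.4, 86.8, 90.3 and 69.0 CPM in male mutants. Male groups did not overlap, and the log2 fold change was 0.75 ± 0.13 (SE; edgeR adjusted p = 0.00276). In female controls it was at 64.9, 61.9, 80.4, 64.9 and 48.2 CPM, and in female mutants at 79.7, 92.3, 148, 85.6 and 74.6 CPM. Female mutant 3 stood far above the other 4 female mutants, and mutants 1 and 5 lay below the highest control. The log2 fold change in females was 0.61 ± 0.17 (SE; edgeR adjusted p = 0.0624), or 0.68 without female mutant 4 (adjusted p = 0.0229).

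*Nid1*, the linker between the laminin and collagen IV networks, was at 54.8, 49.8, 46.3, 52.0 and 40.5 CPM in male controls and at 113, 66.8, 90.3, 112 and 65.4 CPM in male mutants. These groups did not overlap either, and the log2 fold change was 0.84 ± 0.13 (SE; edgeR adjusted p = 0.00222). Female controls had 77.3, 76.7, 97.2, 78.1 and 54.7 CPM, and female mutants had 99.1, 133, 185, 79.4 and 104 CPM. Only female mutant 4 lay below the highest female control. The log2 fold change in females was 0.68 ± 0.21 (SE; edgeR adjusted p = 0.0812) with all 10 females and 0.83 (adjusted p = 0.00627) without female mutant 4, the sole such call among the 9 genes in females. Over all genes the DEGs in females were 92 of 14439 with that mouse and 866 of 14595 without it.

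In counts over the list, 4 of 9 genes were DEGs in males, against 8.46% of 14010 genes tested (5.25% higher in mutants), and 0 of 9 in females, against 0.637% of 14439 genes. In females 5 of the 9 had an unadjusted p under 0.05, against 20.6% of all genes tested. The DESeq2 Wald test in females also called 0 of the 9, against 928 of 14439 genes. The male calls depended on male control 4, the only male control of litter B. Without it 0 of 9 were called, with edgeR adjusted p of 0.0174 to 0.0192 for the 4 genes and log2 fold changes of 0.77 to 1.015, while over all genes the DEGs fell from 1185 to 187. Every male mutant was above every male control for 4 of the 9 genes, against 8.68% of 14820 genes. The count was also 4 of 9 with any male left out, where the share over all genes is not given. Every female mutant was above every female control for 0 of 9, against 3.71% of genes. Over both sexes at once, every mutant was above every control for 0 of 9, against 0.978% of genes. The 2 within-sex comparisons share no mice, and each shares its mice with the comparison over both sexes.

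The sex-by-genotype term, which tests whether the change in males differs from that in females, called 0 of the 9 genes and 0% of 14820 genes with edgeR. At an unadjusted p under 0.05 there were 0 of the 9 genes and 618 of all genes, and the DESeq2 Wald test called 0 of the 9 and 18 of all genes. The log2 differences between the sexes ran from −0.37 for *Lama5* to 0.38 for *Col4a2*, with standard errors of 0.14 to 0.30, so a larger rise in males was not shown for these genes. Without female mutant 4 they ran from −0.45 for *Lama5* to 0.28 for *Col4a4*, and again 0 of the 9 were called.

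Within the 6 strata of sex and litter, the mean log2 CPM of mutants exceeded that of controls in 6 of 6 for *Col4a1*, *Col4a2*, *Lamb1*, *Lamc1* and *Nid1*. The differences were 0.40 to 1.12 for *Col4a1*, 0.32 to 1.07 for *Col4a2*, 0.30 to 0.82 for *Lamc1* and 0.36 to 0.95 for *Nid1*, and 0.047 to 0.23 for *Lamb1*. The other genes were higher in 3 (*Col4a3*), 4 (*Lama5*) or 5 (*Col4a4* and *Col4a5*) of 6. Of the strata, 3 held 1 mutant and 1 control each, so these differences carry no error.

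In bulk kidney RNA, fewer cells of a type and less RNA per cell cannot be told apart, and markers of several cell types moved with genotype beside *Col4a1*, *Col4a2*, *Lamc1* and *Nid1*. Of 8 fibroblast and myofibroblast markers 5 were higher in mutants over both sexes and 0 lower, with a summed level of 205 to 267 CPM in male controls, 372 to 1111 in male mutants, 281 to 439.9 in female controls and 436 to 1487 in female mutants. Of 6 macrophage markers all 6 were higher, with sums of 94.9 to 109.0, 138 to 327, 121 to 153 and 124.7 to 458 CPM in the same order. Of 8 tubule injury markers all 8 were higher. Markers of the thick ascending limb and distal convoluted tubule were lower in 6 of 6. Of 7 collecting duct markers 4 were lower and 0 higher, and of 8 proximal tubule markers 1 was lower and 0 higher. Of 5 mesangium and pericyte markers tested 0 passed, and of 3 smooth muscle markers tested 1 was higher and 1 lower. Without female mutant 4, 2 proximal tubule markers were lower and 1 mesangium and pericyte marker was higher. Over all genes tested 10% were higher and 5.86% lower. Over both sexes the 8 endothelial markers did not pass, with log2 fold changes of −0.34 to 0.32 and edgeR adjusted p of 0.0159 or more. Without female mutant 4, 1 of the 8 was higher and 0 lower in that comparison. In males, 2 of the 8 were higher in mutants, *Pecam1* (log2 fold change 0.55, edgeR adjusted p = 0.00391) and *Plvap* (0.38, adjusted p = 0.00376), and neither passed without male control 4. The summed endothelial level was 381 to 453 CPM in male controls and 452 to 549.9 in male mutants, against 547.0 to 647 in female controls and 491 to 593 in female mutants. No fibroblast or macrophage marker was at 0 in a whole group, and the part of these cells in the rise of the 4 genes was not tested.

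**Figure D2:**
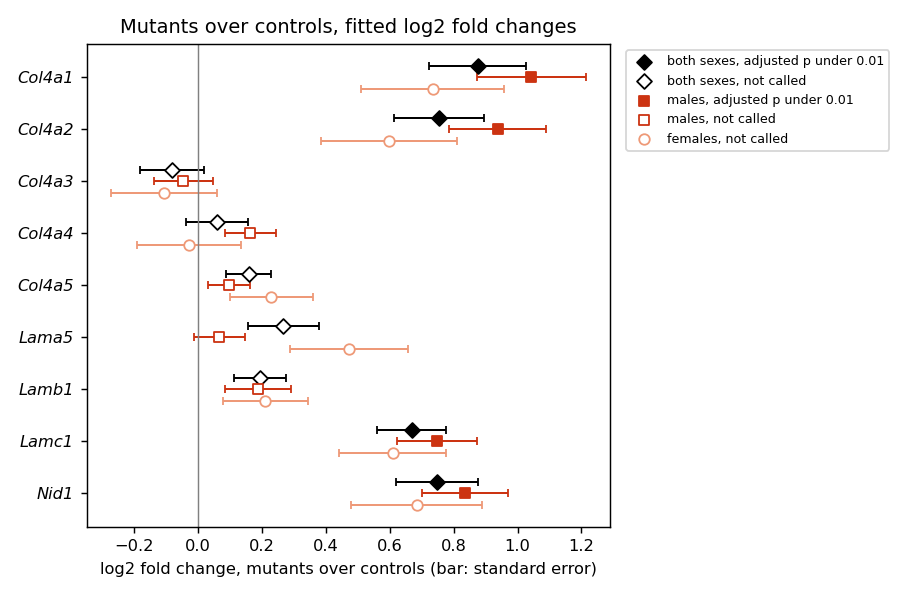
Log2 fold change of each of the 9 genes, mutants over controls, from the edgeR fits over both sexes, in males and in females (horizontal axis; bars are standard errors; filled points have an adjusted p under 0.01). *Col4a1*, *Col4a2*, *Lamc1* and *Nid1* lie between 0.60 and 1.04 in all 3 fits and are filled over both sexes and in males, whereas the other 5 genes lie between −0.11 and 0.47 and are open.

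None of the genes of the glomerular network passed the test of genotype. *Col4a3* was at 294 to 332 CPM in male controls and 272 to 392 in male mutants, and at 238 to 405 in female controls and 213 to 394 in female mutants. The groups overlapped in both sexes, and the log2 fold change over both sexes was −0.082 ± 0.10 (SE; edgeR adjusted p = 0.595). *Col4a4* was at 192 to 264 CPM in male controls and 237 to 303 in male mutants, and at 143 to 223 in female controls and 129 to 229 in female mutants, with a log2 fold change of 0.061 ± 0.096 (SE; adjusted p = 0.692). *Col4a5* was at 46.3 to 55.4 CPM in male controls and 51.1 to 64.7 in male mutants, and at 43.4 to 63.4 in female controls and 52.5 to 77.0 in female mutants. Its log2 fold change was 0.16 ± 0.070 (SE; adjusted p = 0.103). *Col4a6*, which pairs with *Col4a5* outside the glomerulus, was low, with means of 3.16 ± 1.16 (SD, n = 5) in male controls, 5.21 ± 2.35 in male mutants, 5.35 ± 3.01 in female controls and 9.01 ± 3.64 CPM in female mutants, and did not pass (log2 fold change 0.72, adjusted p = 0.0176). Of 8 podocyte markers 5 were lower in mutants over both sexes and 0 higher, with sums of 285 to 443 CPM in male controls, 259.6 to 379 in male mutants, 559.6 to 710.3 in female controls and 427 to 531 in female mutants. Over all genes tested 5.86% were lower in that comparison. None of the 8 podocyte markers was at 0 in a whole group, and the part of podocytes in the levels of *Col4a3*, *Col4a4* and *Col4a5* was not tested.

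The balance between the collagen IV genes is given as ratios within each mouse. Per length, there were 1.16 ± 0.107 (SD, n = 5) *Col4a3* counts for 1 *Col4a1* count in male controls and 0.591 ± 0.191 in male mutants. In females the ratio was 1.008 ± 0.0616 in controls and 0.632 ± 0.277 in mutants. As a mean log2 CPM of *Col4a3*, *Col4a4* and *Col4a5* minus that of *Col4a1* and *Col4a2*, male controls were at −0.32 to −0.00054 and male mutants at −1.70 to −0.52, without overlap. Female controls were at −0.55 to −0.45 and female mutants at −1.58 to −0.39, with female mutant 4 alone above the controls. These scores are taken over the genes listed and were not tested.

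**Figure D3:**
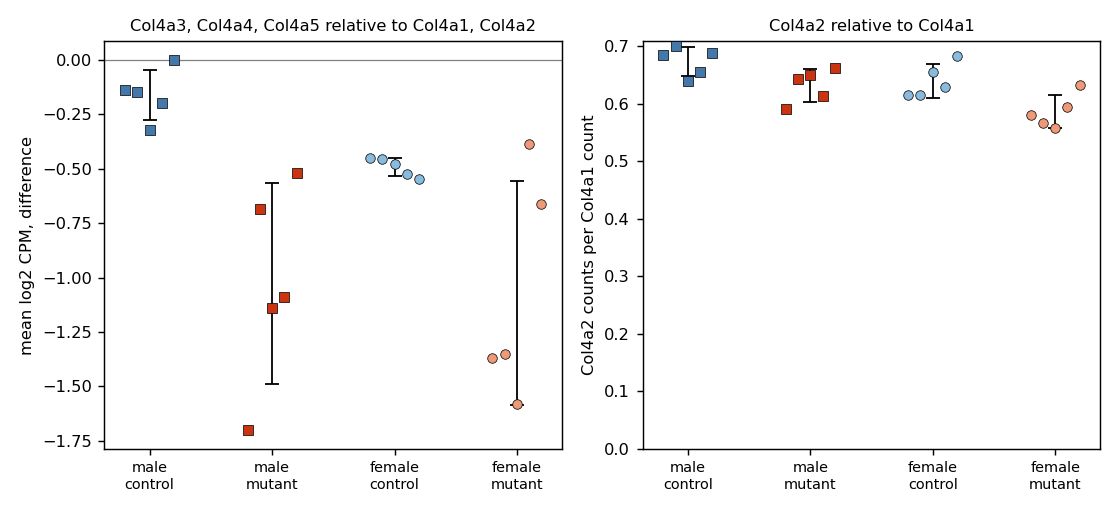
Left, mean log2 CPM of *Col4a3*, *Col4a4* and *Col4a5* minus that of *Col4a1* and *Col4a2* for each mouse. Right, *Col4a2* counts for 1 *Col4a1* count (vertical axis from 0). Points are mice in 4 groups of 5 and bars span the mean ± SD. The left score is lower in every male mutant than in every male control and is −1.58 to −0.39 in female mutants. The right ratio is between 0.558 and 0.701 in all 20 mice. Its mean is 0.674 in male controls and 0.632 in male mutants, and 0.640 in female controls and 0.586 in female mutants.

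The genes of the alpha and beta laminin chains did not pass the test in either sex. *Lama5* was at 95.2 to 113 CPM in male controls and 101.8 to 121 in male mutants, and at 90.2 to 116 in female controls and 107 to 206 in female mutants. The groups overlapped in both sexes, and the log2 fold change was 0.067 ± 0.081 (SE; edgeR adjusted p = 0.601) in males and 0.47 ± 0.18 (SE; adjusted p = 0.173) in females, or 0.55 without female mutant 4 (adjusted p = 0.0711). *Lamb1* was at 169.6 to 218 CPM in male controls and 188 to 271 in male mutants, and at 214 to 265 in female controls and 236 to 349 in female mutants, again with overlap. Over both sexes the log2 fold change was 0.27 ± 0.11 (SE; adjusted p = 0.0828) for *Lama5* and 0.19 ± 0.081 (SE; adjusted p = 0.0849) for *Lamb1*. Both had an unadjusted p under 0.05, as did *Col4a5*, so 7 of the 9 genes were below that line in all, against 37.7% of all genes tested.

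Levels also differed between the sexes for *Nid1*. Among controls *Nid1* was 48.7 ± 5.53 CPM (SD, n = 5) in males and 76.8 ± 15.1 in females, a log2 difference of −0.56 ± 0.096 (SE, males over females; edgeR adjusted p = 0.000995). The highest male control, at 54.8 CPM, was at the level of the lowest female control, at 54.7. *Nid1* was the only one of the 9 genes called, against 17.8% of 14123 genes (9.02% higher in females), and it was lost with all 20 mice in 1 fit (adjusted p = 0.0319), without male control 4 (0.0173) and without female control 1 (0.0119). Among 57 other basement membrane genes tested in controls, 16 were lower and 6 higher in males. Markers of podocytes (8 of 8), endothelium (7 of 8) and mesangium and pericytes (3 of 5) were also lower in males, with 0 higher. Of 8 proximal tubule markers 3 were higher in males and 0 lower. The part of cell types in the *Nid1* difference was not tested. In controls 6 of the 9 had an unadjusted p under 0.05, against 40.4% of all genes tested. Beside *Nid1*, these were *Col4a1* (log2 difference −0.28), *Col4a2* (−0.21), *Lamb1* (−0.27) and *Lamc1* (−0.31), lower in males, and *Col4a4* (0.35), higher in males. Without male control 5 or female control 5, *Col4a1* was called too, also lower in males, with a log2 difference of −0.36 in each case. Among mutants 0 of the 9 genes were called, against 5.42% of 14416 genes, and 1 had an unadjusted p under 0.05, against 30.5% of all genes tested.

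That gene was *Col4a4*, at 237, 244, 258, 291 and 303 CPM in male mutants 1 to 5 and at 129, 163, 229, 227 and 169.9 CPM in female mutants 1 to 5. All male mutants were above all female mutants, a separation for which no share over all genes is given. The log2 difference was 0.65 ± 0.15 (SE, males over females) with an edgeR adjusted p of 0.0163. It passed with DESeq2 (adjusted p = 0.000259), with all 20 mice in 1 fit (0.004535), without female mutant 3 (0.00612) and without female mutant 4 (0.00727). These settings also called more genes in all: 1959 of 14416, 2353 of 14820, 990 of 14479 and 1330 of 14576 in that order. The main fit called 782 of 14416. Over its 16 alternatives the adjusted p ranged from 0.000259 to 0.108. In controls the log2 difference was 0.35 ± 0.14 (SE; adjusted p = 0.0746). There were 0.744 ± 0.0674 (SD, n = 5) *Col4a4* counts for 1 *Col4a3* count in male controls and 0.857 ± 0.0658 in male mutants, against 0.546 ± 0.0394 in female controls and 0.574 ± 0.0320 in female mutants. Every male, at 0.652 or above, was over every female, at 0.607 or below. The Spearman rho of these 2 genes over the 20 mice was 0.2301. This value pools the sexes, whose ratios do not overlap, and no rho within a sex is given. Among females, mutant 1 and control 5 were lowest for both genes, at 213 and 238 CPM for *Col4a3* and 129 and 143 CPM for *Col4a4*. Among males the lowest was mutant 2 for *Col4a3* (272 CPM) and control 3 for *Col4a4* (192 CPM).

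Over the 20 mice, the genes whose log2 CPM was most like that of *Col4a1* by Spearman rho, among 13781 genes, were *Adamts4* (0.985), *Col4a2* (0.985) and *Itgb1* (0.962). For *Nid1* they were *Itpripl2* (0.987), *Akap12* (0.985) and *Col5a1* (0.982), and for *Lamc1* they were *Lrrk1* (0.970), *Itga9* (0.958) and *Fbn1* (0.958). *Col4a2* was most like *Col4a1*, *Adamts4* (0.971) and *Usp43* (0.967). The glomerular chains had other neighbours: *Fzd4* (0.940), *Zfp609* (0.931) and *Mcm3ap* (0.929) for *Col4a3*, *St8sia6* (0.955), *Snrnp200* (0.953) and *Glg1* (0.946) for *Col4a4*, and *Tenm3* (0.901), *Rock2* (0.871) and *Grap2* (0.859) for *Col4a5*. *Lamb1* was most like *St6gal1* (0.950), *Gbp7* (0.941) and *Alx1* (0.938), and *Lama5* most like *Zmynd8* (0.880), *Mical3* (0.868) and *Tert* (0.839). Among the 9 genes themselves, rho was 0.944 between *Lamc1* and *Nid1* and 0.932 between *Col4a1* and *Lamc1*, but 0.0692 between *Col4a1* and *Col4a3* and −0.442 between *Col4a4* and *Lamb1*. The 20 points share 4 groups, 3 litters and their libraries, and these values are descriptions.

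Mean KBW was highest in male mutants (1.68% ± 0.338, SD, n = 5), followed by female mutants (1.18% ± 0.261), male controls (0.692% ± 0.117) and female controls (0.615% ± 0.0448). Among the 10 mutants, with sex in the edgeR fit, 5 of the 9 genes had a positive slope on KBW with an unadjusted p under 0.05. These slopes, in log2 units per percentage point of KBW, were 1.30 ± 0.37 (SE) for *Col4a1*, 1.17 ± 0.33 for *Col4a2*, 0.92 ± 0.34 for *Nid1*, 0.76 ± 0.29 for *Lamc1* and 0.58 ± 0.19 for *Lamb1*. Adjusted over all 14416 genes, 0 of 9 passed and 0% of genes passed, with adjusted p of 0.0749, 0.0755, 0.142, 0.152 and 0.107 in that order. At an unadjusted p under 0.05 there were 3212 genes in all, and the DESeq2 Wald test called 577 genes and 0 of the 9. The slopes of *Col4a3* (−0.27 ± 0.31), *Col4a4* (−0.19 ± 0.30), *Col4a5* (0.065 ± 0.23) and *Lama5* (0.32 ± 0.30) had an unadjusted p of 0.306 or more. Without female mutant 4 the slopes were 1.26 for *Col4a1* (edgeR adjusted p = 0.198), 1.12 for *Col4a2*, 0.76 for *Nid1*, 0.87 for *Lamc1* and 0.56 for *Lamb1*.

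The slopes of these 5 genes were smaller without a sex term in the fit, at 0.76 for *Col4a1*, 0.78 for *Col4a2*, 0.13 for *Nid1*, 0.20 for *Lamc1* and 0.054 for *Lamb1*, and with sex and litter 1.24, 1.12, 0.90, 0.76 and 0.57. Pearson's r with KBW over the 10 mutants was 0.576 for *Col4a1* (permutation p = 0.0828) and 0.662 for *Col4a2* (permutation p = 0.0383). Spearman's rho was 0.673 for *Col4a1* (permutation p = 0.0398) and 0.745 for *Col4a2* (permutation p = 0.0174). Without the 2 mice farthest from the median KBW, male mutant 1 and female mutant 4, r was 0.297 for *Col4a1* (permutation p = 0.474) and 0.406 for *Col4a2* (permutation p = 0.317), so the relation did not hold without those mice, over a narrower range of KBW. The Pearson correlation of *Col4a2* was also sensitive to single mice: it stayed positive at 0.547 or above with any mutant left out, but its permutation p was above 0.05 without any one of 7 of the 10 mutants, including female mutant 4 (r = 0.570, permutation p = 0.109). For the other genes r was −0.215 to 0.408 with a permutation p of at least 0.244, including 0.227 for *Lamc1* (rho 0.394), 0.104 for *Nid1* (rho 0.152) and 0.0806 for *Lamb1* (rho 0.164).

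With both measures centred within each sex, r was 0.742 for *Col4a1* (exact permutation within sex, p = 0.0192), 0.748 for *Col4a2* (p = 0.0165) and 0.804 for *Lamb1* (p = 0.00965). The same exact permutation test gave p = 0.0448 for *Lamc1* (r = 0.653) and p = 0.0554 for *Nid1* (r = 0.649). The permutation p of all these correlations are unadjusted, both over the 9 genes and over all genes. The values adjusted over all genes are those of the slopes above. With at most 5 mutants in a sex and 5 in a litter, no correlation was taken within a sex or litter alone.

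**Figure D4:**
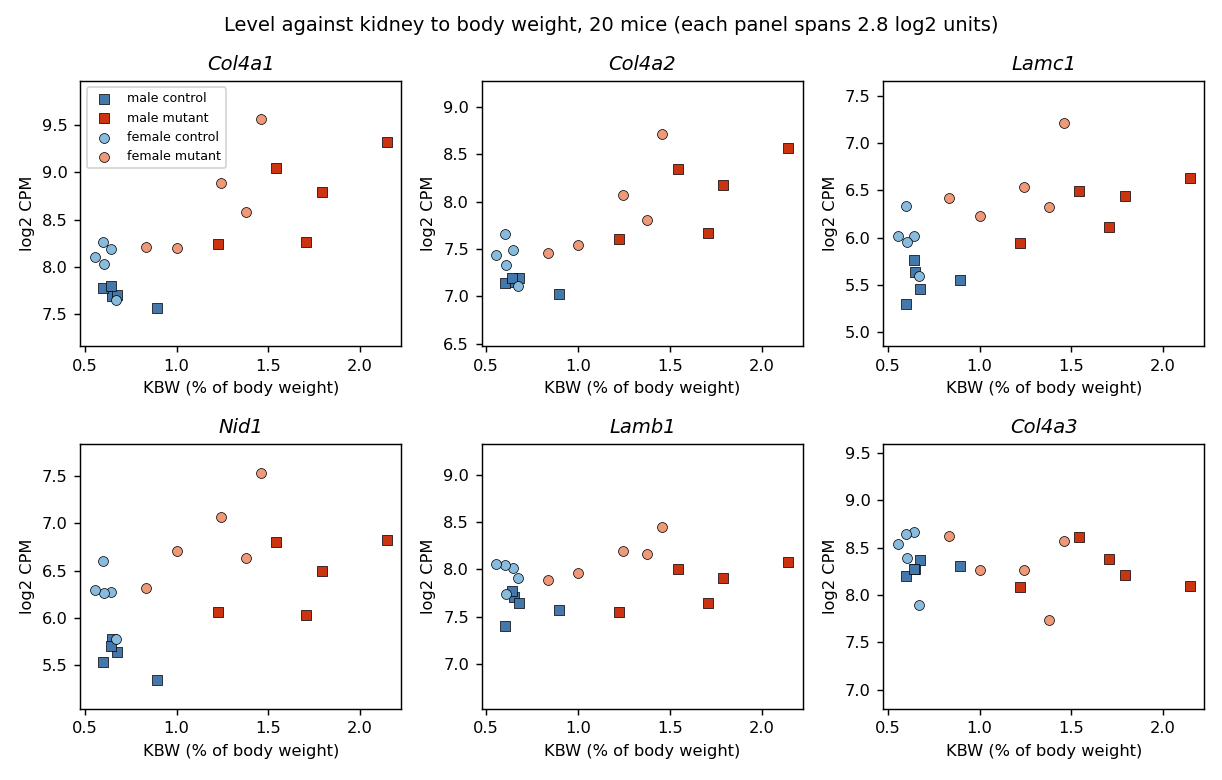
Log2 CPM of 6 of the genes (vertical axis, 2.8 log2 units in each panel) against KBW in percent of body weight for the 20 mice, coloured by group. Mutants with the largest KBW of their sex, male mutant 1 at 2.15% and female mutant 3 at 1.46%, have the highest *Col4a1* and *Col4a2* levels of their sex, and none of the 9 slopes on KBW passed.

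Among 58 other basement membrane genes, 25 were higher and 2 lower in mutants over both sexes, and 30 of the 57 tested did not pass. Over all 14191 genes tested, 10% were higher and 5.86% lower, which is also the share for each list below. The median log2 fold change was 0.36. Of the other laminin, nidogen and collagen IV chains, these partner chains did not pass: *Lama1*, the alpha chain of early tubule basement membranes, was at 0.19, *Lamb2*, the beta chain of the mature glomerular basement membrane, at −0.23, and *Nid2*, the other nidogen, at 0.14. *Hspg2*, which encodes perlecan, was at 0.26 and did not pass.

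Of 18 proteoglycans and other components, 9 were higher and 1 lower. The largest changes were in *Smoc2* (log2 fold change 1.56 ± 0.22, SE), a secreted calcium-binding protein, *Sparc* (1.32 ± 0.18), a collagen-binding matricellular protein, and *Col15a1* (1.03 ± 0.20), a collagen of basement membrane zones. Lower was *Ntn4* (−0.75 ± 0.075), a netrin that binds laminin gamma chains, at 0.596 of the control level. Of 14 receptors 13 were tested and 8 were higher, led by *Itgb4*, the beta subunit of hemidesmosomal integrin (1.05 ± 0.20), *Bcam*, a receptor for the laminin alpha chain of *Lama5* (1.011 ± 0.19), and the syndecan *Sdc1* (0.88 ± 0.17). Of 16 genes for collagen folding, modification and crosslinking, 7 were higher and 1 lower. *Serpinh1*, the collagen chaperone (0.74 ± 0.13), *Pxdn*, the enzyme that crosslinks collagen IV (0.66 ± 0.17), and *Colgalt2*, a collagen galactosyltransferase (−0.37 ± 0.083), changed most. In males 10 of these 58 genes were higher and 2 lower, and in females 1 was higher (*Fras1*, a protein of the epithelial basement membrane, log2 fold change 0.90) and 1 lower (*Ntn4*, −0.81). Without male control 4 the male counts were 1 higher and 1 lower, and without female mutant 4 the female counts were 8 higher and 2 lower. Over both sexes the counts were 30 higher and 3 lower without female mutant 4, and 18 higher and 1 lower without male control 4. Over all genes, 736 were higher and 449 lower of 14010 in males, and 66 and 26 of 14439 in females. Without male control 4 there were 111 and 76 of 14161 in males, and 1118 and 538 of 14288 over both sexes. Without female mutant 4 there were 683 and 183 of 14595 in females, and 1790 and 1204 of 14274 over both sexes. The collagen IV and laminin genes above share all mice with this comparison, and the lists were described by their counts alone.

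**Figure D5:**
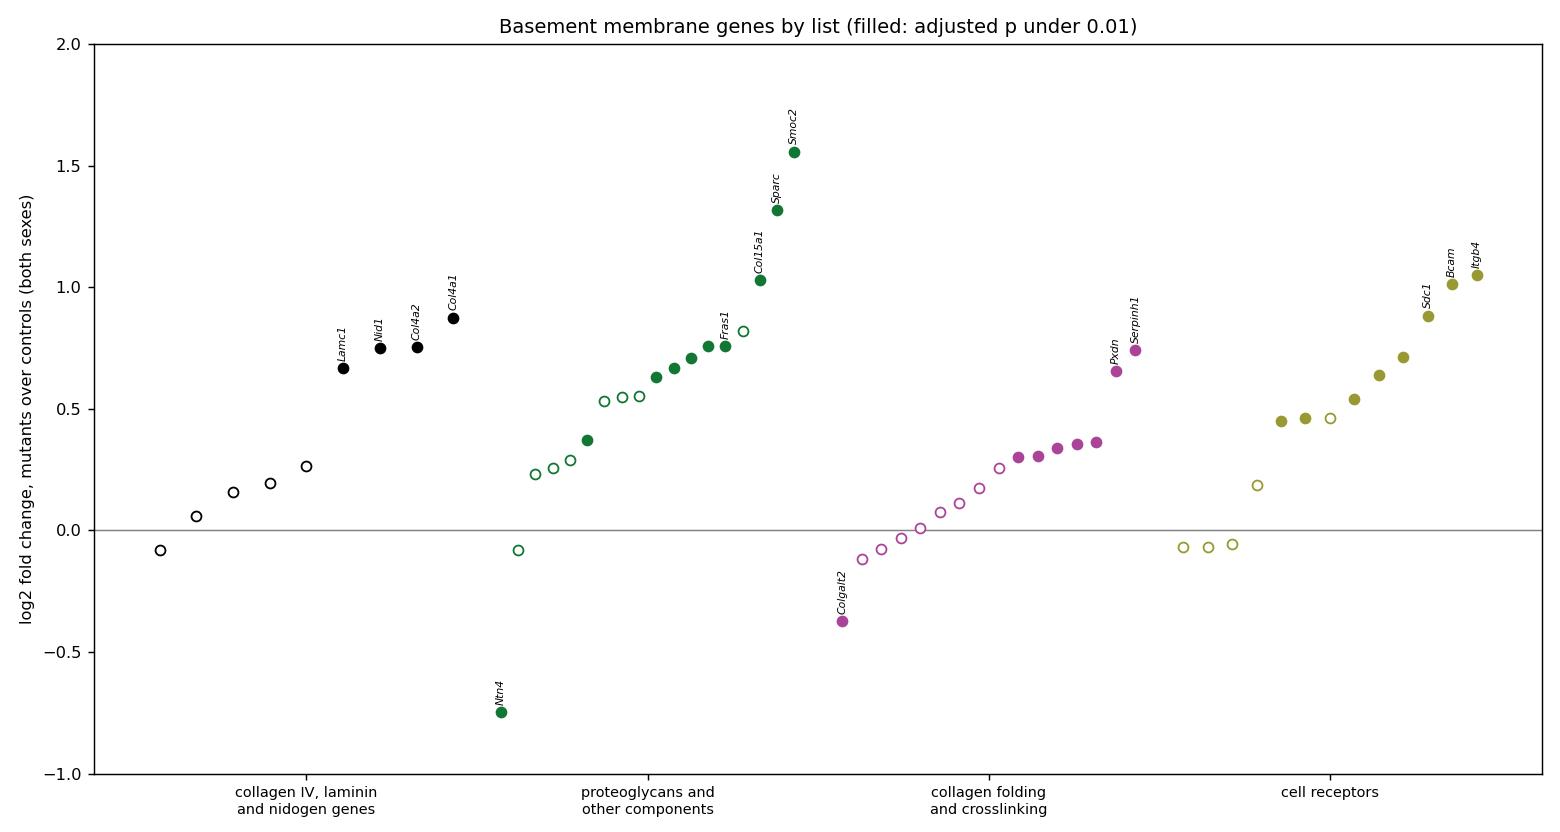
Log2 fold change over both sexes (vertical axis) of the 9 collagen IV, laminin and nidogen genes and of the tested proteoglycans and other components, genes for collagen folding and crosslinking, and receptors, sorted within each list. Filled points have an adjusted p under 0.01, and those named in the text carry their symbols. Genes called higher include *Smoc2* at 1.56 and *Sparc* at 1.32, and the 2 called lower are *Ntn4* at −0.75 and *Colgalt2* at −0.37.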

How the data were processed

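Kidney RNA of 20 mice was sequenced. Before deposit the authors used fastp 0.23.2 for trimming and STAR 2.7.10b for alignment to mm10. The deposited values are raw counts per gene symbol, whole numbers without normalization. The counting tool, its annotation and its strand setting are not given in the sources used here, so reads in the 22 bases that *Col4a1* and *Col4a2* share could be assigned to either. Of the 24411 genes, 4576 had no count in any mouse.

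The fits used edgeR 4.0.16 in R 4.3.3: TMM normalization, filterByExpr, the quasi-likelihood test and Benjamini-Hochberg adjustment over all genes tested, with DEGs called at an adjusted p under 0.01. Litter was a covariate in comparisons within a sex or genotype, the 6 groups of sex and litter in fits over all mice, and sex in the KBW slope. CPM used TMM library sizes, and log2 CPM a prior count of 2. CPM per kilobase used the union of exons in GENCODE. KBW correlations used 100000 permutations, or every order of KBW within sex. The scripts were tested on simulated data.

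Alternatives were the size factors and the Wald test of DESeq2 1.42.0, other filters on low counts (none, or a minimum of 10 in every mouse), a fit over all 20 mice, a fit that ignored litter, other KBW terms and each mouse left out. The members and lists were chosen with earlier results of these data known. Named were all 9 genes, *Pkd2*, in each list the 3 called genes with the largest change and at least 1 CPM, 5 partner chains (*Col4a6*, *Lama1*, *Lamb2*, *Nid2*, *Hspg2*) and, for each of the 9, the 3 genes of highest rho. *Ntn4*, *Fras1*, *Pecam1* and *Plvap* were named after their values were seen. One gene that the rule would name is not reported here.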

Additional observations from a re-analysis of the deposited data

Results flagged for a closer look

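Of 36 sets of 5 mice (9 genes in 4 groups), 1 held a mouse far from the others. *Lamc1* in female mutant 3 was at 148.4 CPM, and its gap to the next female mutant was 0.76 of the range of the group, above the critical value of 0.71 for 5 samples. Chance flags about 1 in 20 such sets. Among female mutants the same mouse also had the highest levels of *Col4a1*, *Col4a2*, *Col4a4*, *Col4a5*, *Lama5*, *Lamb1* and *Nid1*, but not of *Col4a3*. It had the largest KBW of the female mutants, 1.46%.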

How the results depend on the processing

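Over both sexes the 4 calls held under every alternative run, and in males 4 of 9 genes were called in each alternative except without male control 4; no genotype fold change of *Col4a1*, *Col4a2*, *Lamc1* or *Nid1* changed sign. With a mouse left out, the number of the 9 genes called ranged from 0 to 4 in males, 0 to 1 in females, 0 to 2 between the sexes in controls and 0 to 1 between the sexes in mutants. With all 20 mice in 1 fit, 0 of the 9 genes were called between the sexes in controls, against 1700 of 14820 genes. In mutants that fit called 1 of the 9, against 2353 of 14820. The DESeq2 Wald test called 1 of the 9 in mutants, against 1959 of 14416 genes. Genes without overlap between mutants and controls ranged from 0 to 3 in females (3 without female control 3, 1 without female mutant 4) and from 0 to 1 over both sexes. The share over all genes is not given for sets with a mouse left out, so these counts have no background. Genes with a correlation with KBW at p under 0.05 numbered 1 with Pearson's r, 2 with Spearman's rho, 0 without the 2 mice farthest from the median, 4 with sex-centred values and 0 to 2 with a mouse left out. No share over all genes is given for these correlations, so these counts have no background. For the KBW slope, 22.3% of all genes had an unadjusted p under 0.05.

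Some values changed sign, and the cause was not tested. With a mouse left out, the genotype change of *Col4a3* ranged from −0.14 to 0.013 over both sexes and from −0.23 to 0.092 in females, and that of *Col4a4* in females from −0.12 to 0.15. The sex difference in controls ranged from −0.28 to 0.068 (*Col4a3*), −0.014 to 0.075 (*Col4a5*) and −0.046 to 0.17 (*Lama5*), and in mutants from −0.086 to 0.26 (*Col4a1*) and −0.012 to 0.22 (*Col4a3*). The sex-by-genotype term ranged from −0.10 to 0.22 (*Col4a3*), −0.17 to 0.11 (*Lamb1*), −0.060 to 0.35 (*Lamc1*) and −0.038 to 0.38 (*Nid1*), the KBW slope from −0.45 to 0.032 (*Col4a4*) and −0.13 to 0.19 (*Col4a5*), and r with KBW from −0.348 to 0.0222 (*Col4a3*), −0.0354 to 0.226 (*Lamb1*) and −0.0427 to 0.259 (*Nid1*). Without a litter term the sex difference was −0.036 for *Col4a5* in controls and −0.024 for *Col4a3* in mutants, while the fit over all 20 mice gave −0.00075 for *Col4a5* in controls. The sex-by-genotype term of *Lamb1* was −0.017 with DESeq2 size factors, −0.017 with the DESeq2 Wald test and −0.0053 with at least 10 counts in every mouse. Without a sex term the KBW slope was 0.39 for *Col4a4*, −0.083 for *Col4a5* and −0.16 for *Lama5*. Without the 2 mice farthest from the median KBW, r was 0.248 for *Col4a3*, 0.00197 for *Col4a5*, −0.103 for *Lamb1* and −0.172 for *Nid1*, and sex-centred r was −0.222 for *Col4a4*, 0.106 for *Col4a5* and 0.310 for *Lama5*.

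No paired analysis was possible because the numbers of the mice only name them and tie no mutant to a control. The lowest total count of a library was 11307741, and 5 mice in a group limit the precision.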
